A study of Bos indicus x Bos taurus with 45 samples.

Results

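The LOS difference common to fetal kidney and fetal skeletal muscle was measured in 16 of the 45 small RNA libraries of the series. They are the kidney and the skeletal muscle libraries of the 8 fetuses numbered 1 to 4 in the LOS group and 1 to 4 in the control group, with equal numbers taken as 1 fetus. A microRNA (miRNA) was taken where both tissue tables list it, which left 398 of the 436 miRNAs of the kidney table and of the 439 of the muscle table. For each miRNA the average of the LOS difference over both tissues was estimated with the fetus as the unit. The tissue by LOS interaction, which is the LOS difference in muscle minus that in kidney, was estimated within fetuses.

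LOS, large offspring syndrome, is an overgrowth condition of ruminant fetuses seen after assisted reproduction. The LOS fetuses were conceived by assisted reproductive technologies and had the syndrome. The controls were healthy fetuses conceived by artificial insemination. All were Bos indicus crossed with Bos taurus and of about day 105 of gestation. The sex of the kidney and muscle donors is not labelled, but the tongue libraries of numbers 1 to 4 are labelled female in both groups. In these 2 tissues the mode of conception and the syndrome came together, so they cannot be told apart here. The labels give no dams, sires or processing days, and p-values here reflect the variation from fetus to fetus only.

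A miRNA is cut from a hairpin precursor, whose arms are called 5p and 3p. Usually one arm, the guide, is kept in an Argonaute protein, where its seed pairs with messenger RNAs and lowers their translation and stability. Many miRNAs that matter for growth come from shared transcripts. The miR-99/100, let-7 and miR-125 families are encoded in clusters. In the mouse miR-199a and miR-214 share a transcript of mesenchymal cells. Imprinted loci such as DLK1-DIO3, IGF2 and GNAS carry other miRNAs. LOS has been compared with the human overgrowth condition Beckwith-Wiedemann syndrome, which involves imprinted genes.

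The tables hold whole-number read counts per miRNA. Listed reads per library ran from 6609601 to 9170756 in LOS kidneys and 6132982 to 8074879 in control kidneys, and from 4744968 to 6456252 in LOS muscles and 5321105 to 5878392 in control muscles. The shared miRNAs held 99.8% of kidney and 99.4% of muscle reads. Values are CPM, counts relative to all listed reads of the library, scaled by TMM factors, which lay between 0.950 and 1.07. The tissue labels fitted their markers. The muscle miRNA miR-133a had 14649 ± 1074 CPM before scaling in muscle and 34.5 CPM in kidney, and the epithelial miRNA miR-192 had 1162 ± 155 CPM in muscle and 22246 ± 1484 CPM in kidney (SD, n = 8 each). miR-206, another muscle miRNA, was listed in muscle alone, and the hepatocyte miRNA miR-122 averaged 12.5 CPM in muscle and 8.38 CPM in kidney. Each library had a median correlation with the others of its tissue of 0.987 or more. Levels differ widely between miRNAs, which keeps such correlations high, so they cannot show whether a library stood apart. Chi-square per degree of freedom between muscle libraries of a group reached 444 in LOS (fetuses 2 and 3) and 176 in controls (fetuses 1 and 4). In kidney it reached 284 in LOS (fetuses 2 and 3) and 145 in controls (fetuses 1 and 2). In bulk tissue, fewer cells of a type and less RNA per cell cannot be told apart.

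No miRNA passed an adjusted p under 0.05 for the average LOS difference over both tissues (0 of 398, 0% called; limma on 8 fetus means with Benjamini-Hochberg adjustment). The lowest adjusted p was 0.0578. At an unadjusted p under 0.05 there were 40 miRNAs, 10.1% of those tested. Of these, 26 were lower in LOS fetuses (6.53%) and 14 were higher (3.52%). Other tests called 0 (edgeR on counts summed per fetus), 3 (edgeR on 16 libraries), 3 (limma-voom) and 10 miRNAs (DESeq2), and 5 of the 18 alternatives called miR-125b and miR-199b. Over all 398 miRNAs the median difference was -0.01 on the log2 scale and 215 (54%) were lower in LOS fetuses by any amount, against 0.02 and 181 under a scaling over all 16 libraries. Fitted alone, the muscle table gave no calls (0 of 439, 0% called, 58 at an unadjusted p under 0.05) and the kidney table gave 0 of 436 (0% called, 33 at an unadjusted p under 0.05), by edgeR's quasi-likelihood test. DESeq2 called 10 in muscle and 4 in kidney. Without LOS fetus 3 muscle gave 1 call, and without LOS fetus 2 kidney gave 2. By their numbers the same 4 LOS and 4 control fetuses stand behind both tissues, so the tissues are set side by side and are not independent.

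**Figure D1:**
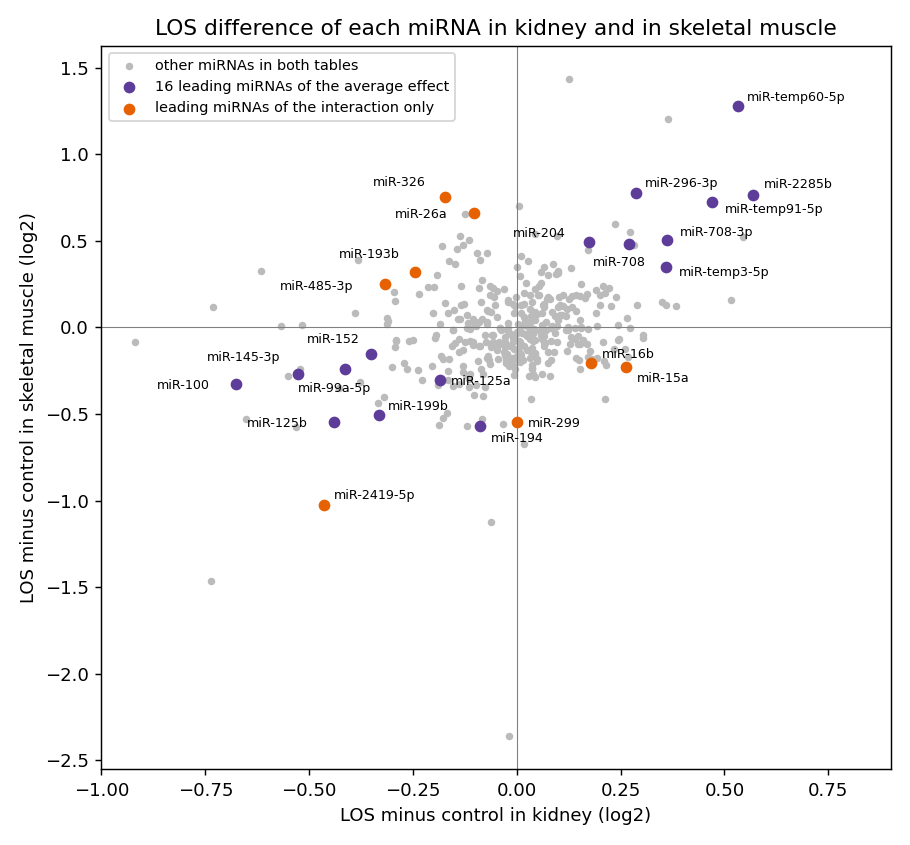
Each point is a miRNA listed in both tables, with the LOS minus control difference in kidney on the x axis and in skeletal muscle on the y axis, both in log2 units. Purple marks the 8 lower and 8 higher miRNAs with the smallest p of the average difference, and orange marks those that lead the interaction only. miR-125b and miR-199b lie at negative values on both axes, whereas miR-26a and miR-326 lie above 0 in muscle and below 0 in kidney.

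The guide arms of the miR-99/100 and miR-125 families were lower in LOS fetuses in both tissues, none past the threshold. These families repress growth regulators, among them mTOR and the IGF1 receptor for miR-99/100 in human and mouse cells. miR-125b is also known in mouse myoblasts for repressing IGF2, and it was abundant in both tissues. In muscle miR-125b had 2637, 2225, 2216 and 2236 CPM in LOS fetuses 1 to 4, against 3490.1, 3103, 3147 and 3853 CPM in control fetuses 1 to 4. In kidney it had 2143, 2912, 1974 and 2055 CPM in LOS fetuses, against 2952, 2988, 2844 and 3547 CPM in controls. Every LOS muscle lay below every control muscle, and in kidney LOS fetus 2 alone reached into the control range. The average difference was -0.50 ± 0.09 (log2 ± SE, 95% interval -0.70 to -0.30), or 70.8% of the control level, with an adjusted p of 0.0578 by limma. It was -0.55 ± 0.10 in muscle and -0.44 ± 0.13 in kidney. The difference between the tissues was -0.09, with an interval of -0.41 to 0.23.

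miR-100, of the same list, differed more in kidney than in muscle on its point values. In muscle it had 5648, 3767, 3992 and 3018 CPM in LOS fetuses, against 5598, 4752, 4588 and 5664 CPM in controls. Kidney levels were 1598, 2182, 1300.2 and 1302 CPM in LOS fetuses, against 2529, 2248, 2418 and 2995 CPM in controls. Kidney groups did not overlap, whereas the muscle of LOS fetus 1 stood among the controls. Averaged over both tissues, it differed by -0.53 ± 0.14, or 69.3% of the control level (adjusted p 0.261, limma), with -0.33 ± 0.17 in muscle and -0.68 ± 0.17 in kidney. The interval for muscle minus kidney was -0.10 to 0.79.

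The near-identical miR-99a-5p followed with smaller differences. It had 1642, 1279.5, 1380.5 and 1425 CPM in LOS muscles, against 1637, 1579.8, 1541 and 1997 CPM in control muscles. In kidney it had 821, 1019.7, 772 and 893 CPM in LOS fetuses, against 1163, 1240.5, 945 and 1325 CPM in controls. The groups overlapped in each tissue through a single LOS fetus, number 1 in muscle and number 2 in kidney. The average difference was -0.32 ± 0.09 (79.9% of control, adjusted p 0.261, limma).

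miR-125a, which shares its seed with miR-125b, had 2607, 2076, 2473 and 2376 CPM in LOS muscles, against 3294, 2635, 2941 and 2894 CPM in control muscles. Kidney levels were 3414, 4104, 2966 and 3098 CPM in LOS fetuses, against 3652, 3877, 3875 and 4038 CPM in controls. Muscle groups did not overlap, while the kidney of LOS fetus 2 was the highest of all 8 kidneys. Averaged over both tissues, it differed by -0.25 ± 0.06 (84.1% of control, limma adjusted p 0.168). miR-99b, the fifth guide, averaged -0.31 ± 0.18 (adjusted p 0.543, limma), and its kidney level in LOS fetus 2 was 13314 CPM, against 5373 to 7898 CPM in the other LOS kidneys and 8451 to 10156 CPM in control kidneys. Reads of miR-99a and miR-100, or of miR-125a and miR-125b, may have been split between these near-identical sequences, since how the counting treated such reads is not given in the sources used here.

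**Figure D2:**
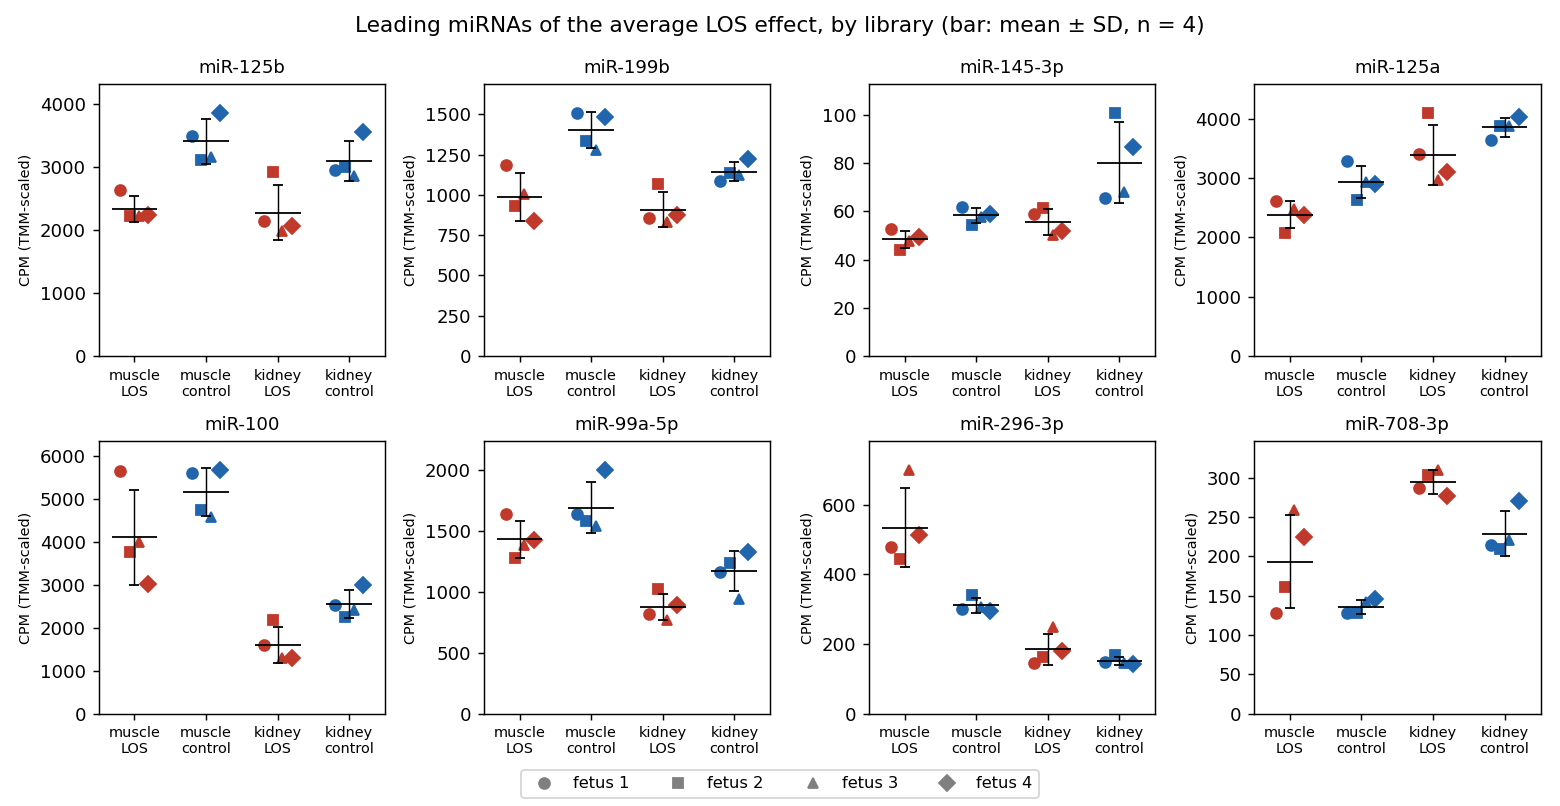
TMM-scaled CPM of 8 leading miRNAs in each library of LOS and control muscle and LOS and control kidney, with the mean and SD of 4 fetuses, and a marker shape for each fetus number (LOS and control fetuses of a number are different animals). miR-199b and miR-145-3p show no overlap between LOS and control fetuses in either tissue, and miR-296-3p is separated in muscle and overlaps in kidney.

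The arms of these precursors stood at different values. All 5 guide arms of the miR-99/100 and miR-125 list were lower on average, from -0.53 to -0.25, and 4 of them had an unadjusted p under 0.05. Of the 5 listed 3p arms 1 was lower, the differences ran from -0.01 to 0.15 and none had an unadjusted p under 0.05. miR-125b-1-3p averaged 0.15 ± 0.15, with 0.43 ± 0.20 in muscle and -0.07 ± 0.14 in kidney. This split by arm was made after the values were seen, and the difference between arms was not tested. Over the whole list of 10 arms the median was -0.13, with 6 lower and 4 higher, beside a median of -0.01 over all 398 miRNAs.

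**Figure D3:**
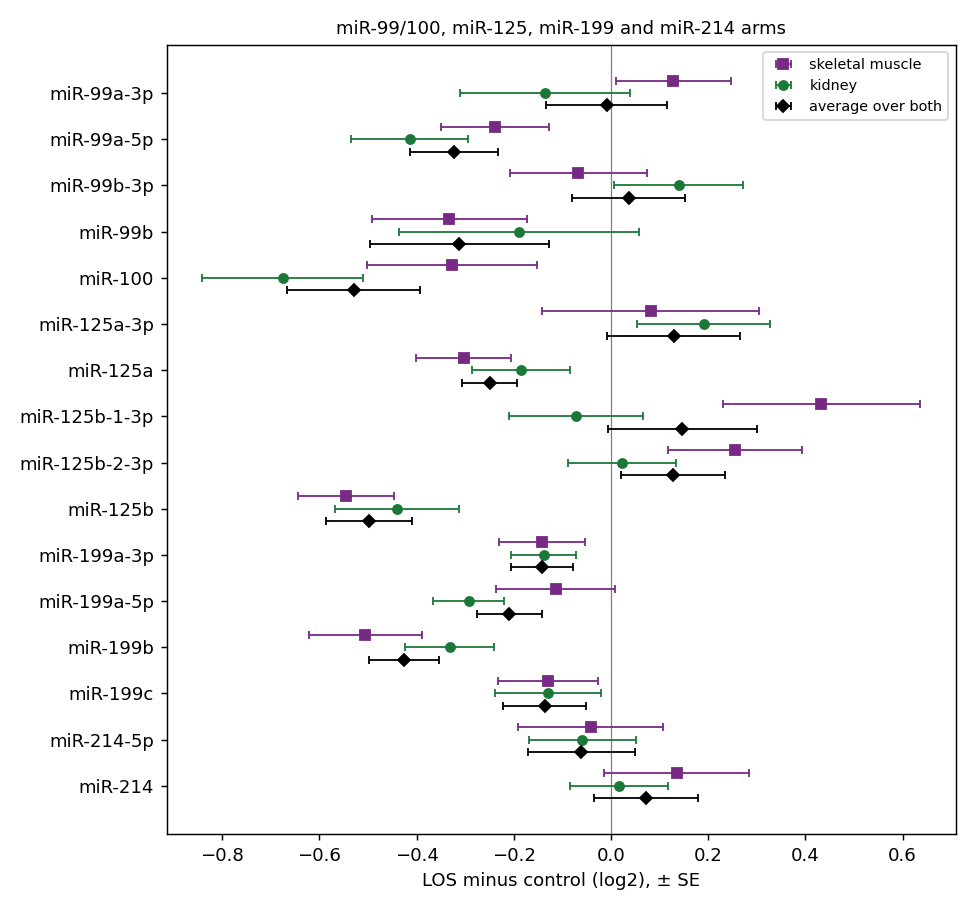
LOS minus control difference (log2, ± SE) in skeletal muscle, in kidney and averaged over both for the listed arms of miR-99/100, miR-125, miR-199 and miR-214. The guide arms miR-99a-5p, miR-99b, miR-100, miR-125a and miR-125b lie left of 0 in both tissues, and miR-99a-3p, miR-99b-3p and the 3p arms of miR-125 lie close to or right of 0 on average.

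miR-199b was the miRNA with the smallest p of the average difference. In the mouse its relative miR-199a is made with miR-214 from a transcript of mesenchymal cells. miR-199b is listed under a precursor of its own. In muscle miR-199b had 1182, 928, 1003 and 835 CPM in LOS fetuses, against 1509, 1335, 1278 and 1485 CPM in controls. In kidney it had 857, 1067, 831 and 877 CPM in LOS fetuses, against 1085, 1137, 1125 and 1225 CPM in controls. Every LOS library lay below every control library in each tissue, with the kidney of LOS fetus 2 nearest to the controls. The average difference was -0.43 ± 0.07 (interval -0.59 to -0.27), or 74.4% of the control level, with an adjusted p of 0.0578 by limma. It was -0.51 ± 0.12 in muscle and -0.33 ± 0.09 in kidney, and the interval of muscle minus kidney was -0.51 to 0.16.

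Among its relatives, miR-199a-5p differed by -0.21 ± 0.07 on average (adjusted p 0.297, limma). In kidney miR-199a-5p had 1181, 1289.8, 1152 and 1260.1 CPM in LOS fetuses, against 1512, 1401, 1456 and 1613 CPM in controls, with no overlap. In muscle it had 2739.6, 2199.5, 3303 and 2816 CPM in LOS fetuses, against 3341, 2832, 2854 and 2939 CPM in controls, and the groups overlapped. miR-199a-5p and miR-199b are near-identical in sequence, so their shares of reads are uncertain. Of the 6 arms of the miR-199 and miR-214 list 5 were lower and 2 had an unadjusted p under 0.05, both lower, with a median of -0.14. miR-214 itself averaged 0.07 ± 0.11. The summed markers of mesenchyme and fibroblasts (5 listed arms of miR-199a, miR-214, miR-143 and miR-145) ran from 37469 to 50445 CPM in LOS muscles and 39984 to 45103 CPM in control muscles, and from 46862 to 52087 CPM in LOS kidneys and 48520 to 67414 CPM in control kidneys, all before scaling. Among these 5 arms miR-143 had the highest fetus means, from 14.9 to 15.3 on the log2 scale, so it weighs most in the sums. The part of mesenchymal cells and fibroblasts in the miR-199b difference was not tested.

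miR-145-3p is the less abundant arm of miR-145, which marks smooth muscle in the mouse. In muscle miR-145-3p had 52.7, 44.0, 47.5 and 49.3 CPM in LOS fetuses, against 61.9, 54.4, 57.8 and 59.0 CPM in controls. Kidney levels were 59.0, 61.3, 49.97 and 52.0 CPM in LOS fetuses, against 65.4, 100.9, 67.9 and 86.6 CPM in controls. The groups did not overlap in either tissue, and the control kidneys were spread more widely than the LOS kidneys. Averaged over both tissues, it differed by -0.39 ± 0.09, or 76.4% of control (adjusted p 0.168, limma). Its partner arm miR-145 averaged -0.01 ± 0.15, made of 0.39 ± 0.20 in muscle and -0.38 ± 0.15 in kidney. Non-overlap in both tissues, with LOS lower, was seen for 2 of the 398 miRNAs (0.503%), miR-199b and miR-145-3p, and with LOS higher for 0 (0%).

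The remaining lower miRNAs of the leading 8 were miR-152 and miR-194. miR-152, which represses the DNA methyltransferase DNMT1 in human and mouse cells, had 127, 111, 124 and 101 CPM in LOS muscles, against 121, 140.2, 128 and 125 CPM in control muscles. Its kidney levels were 59.3, 71.5, 68.3 and 63.1 CPM in LOS fetuses, against 90.8, 84.3, 75.9 and 83.1 CPM in controls. Kidney groups did not overlap and muscle groups did. The average difference was -0.25 ± 0.07 (adjusted p 0.261, limma). miR-194, which is made with miR-192 in epithelia, had 25.9, 29.2, 26.4 and 27.6 CPM in LOS muscles, against 37.0, 54.4, 36.8 and 33.5 CPM in control muscles, with no overlap. In kidney it had 566, 525, 547 and 502 CPM in LOS fetuses, against 521, 614, 589.6 and 549 CPM in controls, with overlap. The LOS difference of miR-194 was -0.57 ± 0.16 in muscle and -0.09 ± 0.08 in kidney, with an average of -0.31 ± 0.10 (adjusted p 0.297, limma). With counts summed per fetus, which kidney reads dominate for miR-194, the average was -0.070 (adjusted p 0.864, edgeR), and over all alternatives its adjusted p ran from 0.0835 to 0.881. Its interaction was -0.46 ± 0.14 (adjusted p 0.247, edgeR).

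The leading higher miRNA was miR-296-3p, from a precursor that lies in the imprinted GNAS domain in human and mouse. In muscle it had 479, 443, 698 and 513 CPM in LOS fetuses, against 301, 341, 306 and 295 CPM in controls. In kidney it had 146, 162, 249 and 179 CPM in LOS fetuses, against 147, 169, 145 and 143 CPM in controls. Muscle groups were apart, kidney groups overlapped, and LOS fetus 3 was the highest in both tissues. Averaged over both tissues, it differed by 0.51 ± 0.14, or 142% of control (adjusted p 0.261, limma). It was 0.78 ± 0.14 in muscle and 0.29 ± 0.16 in kidney. The other arm, miR-296-5p, averaged 0.08 ± 0.16.

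Both arms of miR-708, whose precursor lies within the gene TENM4 in human and mouse, stood higher in LOS fetuses. miR-708-3p had 128, 161, 258 and 224 CPM in LOS muscles, against 128, 127, 141 and 145 CPM in control muscles. In kidney miR-708-3p had 287, 304, 309 and 276 CPM in LOS fetuses, against 214, 209, 221 and 271 CPM in controls. Kidneys were apart and muscles overlapped through LOS fetus 1. The average was 0.41 ± 0.12 for miR-708-3p (133% of control) and 0.39 ± 0.11 for miR-708 (131% of control), each with an adjusted p of 0.261 by limma. The interval of muscle minus kidney for miR-708-3p was -0.36 to 0.55.

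miR-204, an epithelial miRNA of kidney and eye, averaged 0.31 ± 0.10 (124% of control, adjusted p 0.289, limma), or 0.20 with counts summed per fetus. It had 38.4, 54.3, 73.2 and 73.9 CPM in LOS muscles, against 35.5, 38.8, 47.9 and 47.9 CPM in control muscles. Kidney levels were 1176, 1194, 871 and 950.2 CPM in LOS fetuses, against 977, 828, 984 and 927 CPM in controls. The groups overlapped in both tissues. The other leading higher entries were miR-temp60-5p at 0.91 ± 0.25, miR-2285b at 0.70 ± 0.24, miR-temp91-5p at 0.60 ± 0.18 and miR-temp3-5p at 0.34 ± 0.12. Names with temp are temporary, and nothing in the files gives these entries a known role. miR-temp60-5p had 87.4, 197, 116 and 62.8 CPM in LOS muscles, against 34.2, 63.8, 29.3 and 63.6 CPM in control muscles, so LOS fetus 4 stood within the controls.

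The 8 leading lower and 8 leading higher miRNAs were chosen by the smallest p of the average, so their direction is fixed by the choice, their separation is largely set by it, and neither is a result. As a description, the fetus means of LOS and control did not overlap for 8 of the 8 lower miRNAs and 4 of the 8 higher ones, and nothing is read from the 6.03% of all 398 miRNAs with every LOS fetus below and the 2.01% with every LOS fetus above the controls. In muscle alone 5 of the lower and 1 of the higher were apart (5.28% and 3.52% of all miRNAs in those directions). In kidney alone it was 4 and 1 (2.51% and 2.01%). The fetus nearest to the controls was not the same in each tissue. LOS fetus 1 had the highest LOS level in muscle for 7 of the 8 lower miRNAs, and LOS fetus 2 had the highest LOS level in kidney for 7 of the 8.

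In the other families and cell type lists no member passed the threshold, and the medians of the lists of 16 or more members lay between -0.06 and -0.03. The guide arms of let-7 and miR-98 repress growth genes such as HMGA2 and RAS in human cells. Of the 15 listed arms 11 were lower and 4 higher with a median of -0.10. Of the 9 guide arms among them 8 were lower, with a median of -0.11. In the whole list 1 arm had an unadjusted p under 0.05. That member, let-7f, averaged -0.12 ± 0.05, with -0.21 ± 0.09 in muscle and -0.01 ± 0.06 in kidney. The 69 members of the DLK1-DIO3 domain, a large imprinted miRNA cluster, had 40 lower and 29 higher with a median of -0.03 (34 lower and a median of 0.00 when scaled over all 16 libraries), and 4 lower and 1 higher at an unadjusted p under 0.05. Its most abundant member in muscle, miR-127, made up 10.6% of muscle reads and averaged -0.04 ± 0.07. For the 4 lower members at an unadjusted p under 0.05, LOS fetus 3 had the lowest mean over both tissues of all fetuses. They were miR-299, miR-409a, miR-411c-5p and miR-154a-3p. The log2 fetus mean of miR-409a was 8.49 in LOS fetus 3 and 9.04 to 10.23 in the others. LOS fetus 3 was also lowest for many members without a small p, among them miR-127, miR-136, miR-379, miR-381, miR-410 and miR-494. It was not the lowest for some others, such as miR-154b, miR-323b-3p, miR-412 and miR-431. The domain was not tested fetus by fetus.

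Of 5 arms from the imprinted IGF2, MEST and GNAS loci 4 were higher and 1 lower, with a median of 0.12 and 1, miR-296-3p, at an unadjusted p under 0.05. The 10 arms of the miR-30 family had 8 lower and a median of -0.02, or 4 lower and a median of 0.01 when scaled over all 16 libraries. The 16 arms of the miR-17 families, which promote growth in the mouse, had 11 lower, 5 higher and a median of -0.06, and miR-25 was their 1 member at an unadjusted p under 0.05 with -0.12 ± 0.05. The 18 ruminant miR-2284 and miR-2285 members had 11 lower and 7 higher with a median of -0.06, led by miR-2285k at -0.34 ± 0.11 and miR-2285b. Of 5 HOX cluster arms 4 were lower, with a median of -0.07, and miR-196a averaged -0.21 ± 0.11 and miR-10b, which took 9.32% of muscle and 29.1% of kidney reads, averaged 0.09 ± 0.08. Of 7 arms of the miR-15 and miR-16 family 2 were lower and 5 higher with a median of 0.02, among them miR-15b-3p at -0.25 ± 0.11. miR-210, which rises under hypoxia, averaged 0.01 ± 0.09.

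The cell type lists gave values without calls. Of the 11 smooth muscle and fibroblast arms 6 were lower and 5 higher with a median of -0.01 (0.02 when scaled over all 16 libraries), among them miR-21-3p at 0.35 ± 0.13. Of 5 kidney epithelium members 4 were lower and 1 higher, with a median of -0.17, or 3 lower and a median of -0.070 with counts summed per fetus. The 6 kidney epithelium markers together ran from 22223 to 27068 CPM in LOS kidneys and 23324 to 25521 CPM in control kidneys, before scaling as for all marker sums. Most of that sum is miR-192, which averaged 22246 CPM in kidney, so the sum is not read as an epithelial level. All 3 endothelial arms were higher on average, with a median of 0.14, and miR-126-5p and miR-126-3p averaged 0.14 ± 0.08 and 0.18 ± 0.11. The miR-126-3p average was made of 0.35 ± 0.14 in muscle and -5.0e-05 ± 0.10 in kidney. For miR-126-5p the values were 0.19 ± 0.11 in muscle and 0.11 ± 0.07 in kidney. The summed level of these 2 miR-126 arms was 9608 to 12516 CPM in LOS muscles and 8408 to 9771 CPM in control muscles. In kidney it was 11501 to 13668 CPM in LOS fetuses and 11342 to 11930 CPM in controls. The groups overlapped in both tissues. The summed red cell markers (miR-451, miR-144 and miR-486) ran from 37099 to 45337 CPM in LOS muscles and 34072 to 41505 CPM in control muscles. In kidney they ran from 1859 to 3004 CPM in LOS fetuses and 2025 to 2575 CPM in controls. miR-451 averaged only 110 CPM in muscle and 160 CPM in kidney, and miR-144 had lower fetus means still. Most of each sum is therefore miR-486, and the sums are not read as red cell levels. Of 3 red cell members 2 were lower (median -0.07), with miR-451 at -0.37 ± 0.19, and miR-486 was higher at 0.09 ± 0.09. Of 6 white blood cell members 5 were lower (median -0.09), with miR-146a at -0.24 ± 0.11 and miR-155 at 0.20 ± 0.11. The part of these cell types in the results was not tested. Of 5 muscle markers miR-133a alone was listed in kidney. There it ran from 17.7 to 37.7 CPM in LOS fetuses and 21.2 to 87.6 CPM in controls before scaling, and its average of -0.41 ± 0.21 was made of -0.08 ± 0.07 in muscle and -0.92 ± 0.43 in kidney. The miR-133a average was -0.15 with counts summed per fetus and -0.22 without control fetus 2. The hepatocyte miRNA miR-122 averaged -1.04 ± 0.49, at 1.62 to 13.4 CPM in LOS muscles and 5.45 to 29.6 CPM in control muscles before scaling. Of 7 neural members 5 were lower (median -0.09), with miR-218 at -0.23 ± 0.15. miR-205 of the general epithelium list averaged -0.21 ± 0.38, miR-141 0.27 ± 0.32, and miR-34c of the miR-34 and miR-449 list 0.11 ± 0.10. Of the miR-424 cluster 5 of 8 arms were lower (median -0.03), with miR-450a at -0.23 ± 0.12.

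No miRNA passed the threshold for a difference in LOS effect between the tissues (0 of 398, 0% called; edgeR's quasi-likelihood test with the fetus as a block). The lowest adjusted p was 0.0902, shared by miR-296-3p and miR-26a, and 42 miRNAs (10.6%) had an unadjusted p under 0.05. Both were called by DESeq2 with the same block, and 0 by limma on differences per fetus. Without LOS fetus 4 miR-26a was called, and without LOS fetus 2 miR-temp45-3p was. miR-26a is an abundant miRNA that represses EZH2 in mouse myoblasts. In muscle miR-26a had 67745, 64712, 103138 and 68335 CPM in LOS fetuses, against 41658, 54254, 37439 and 58487 CPM in controls, with no overlap. In kidney miR-26a had 35712, 38607, 53339 and 52473 CPM in LOS fetuses, against 40787, 51036, 46422 and 55213 CPM in controls, with overlap. Its LOS difference was 0.66 ± 0.19 in muscle and -0.10 ± 0.14 in kidney, so muscle minus kidney was 0.78 ± 0.15 (interval 0.44 to 1.11, adjusted p 0.0902, edgeR). The LOS difference of miR-296-3p was higher by 0.50 ± 0.10 in muscle than in kidney (interval 0.28 to 0.71, adjusted p 0.0902, edgeR), with means above the controls in both.

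Several other miRNAs leading the interaction lay on opposite sides of 0. miR-326, whose precursor lies within the gene ARRB1 in human and mouse, had 44.9, 46.0, 77.4 and 65.3 CPM in LOS muscles, against 25.2, 37.9, 37.2 and 37.9 CPM in control muscles, with no overlap. Its kidney levels were 29.97, 32.2, 44.4 and 47.6 CPM in LOS fetuses, against 50.1, 45.8, 33.1 and 45.2 CPM in controls. miR-326 differed by 0.75 ± 0.21 in muscle and -0.17 ± 0.18 in kidney (muscle minus kidney 0.92 ± 0.23, adjusted p 0.234, edgeR). miR-485-3p and miR-193b followed with 0.56 ± 0.14 and 0.56 ± 0.15 (adjusted p 0.234 and 0.245, edgeR). In the other direction stood the cell-cycle regulators miR-15a, with -0.23 ± 0.15 in muscle and 0.26 ± 0.11 in kidney, and miR-16b, with -0.21 ± 0.10 in muscle and 0.18 ± 0.10 in kidney. Their interaction values were -0.48 ± 0.14 and -0.38 ± 0.10 (adjusted p 0.247 and 0.245, edgeR), and their averages were 0.02 ± 0.11 and -0.02 ± 0.08. miR-299 of the DLK1-DIO3 domain differed by -0.55 ± 0.16 in muscle and 0.00 ± 0.13 in kidney. miR-2419-5p lay below 0 in both, with -1.02 ± 0.37 in muscle and -0.46 ± 0.33 in kidney.

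From imprinted loci, miR-483, which lies within IGF2 in human and mouse, had 171, 169, 234 and 218 CPM in LOS muscles, against 142, 126, 155 and 148 CPM in control muscles, with no overlap. In kidney it had 158, 156, 153 and 93.9 CPM in LOS fetuses, against 174, 140.2, 156 and 166 CPM in controls. Its interaction was 0.66 ± 0.23 (adjusted p 0.265, edgeR) and its average 0.13 ± 0.10. miR-665 of the DLK1-DIO3 domain had 1422, 1564, 1517 and 1481 CPM in LOS muscles, against 1157, 1144, 1024 and 1168 CPM in control muscles. Kidney levels of miR-665 were 366, 349, 242 and 372 CPM in LOS fetuses, against 327, 337, 340.3 and 315 CPM in controls. Its LOS difference was 0.41 ± 0.08 in muscle, where the groups were apart, and 0.01 ± 0.13 in kidney, with an interaction of 0.42 ± 0.15 (adjusted p 0.265, edgeR).

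**Figure D4:**
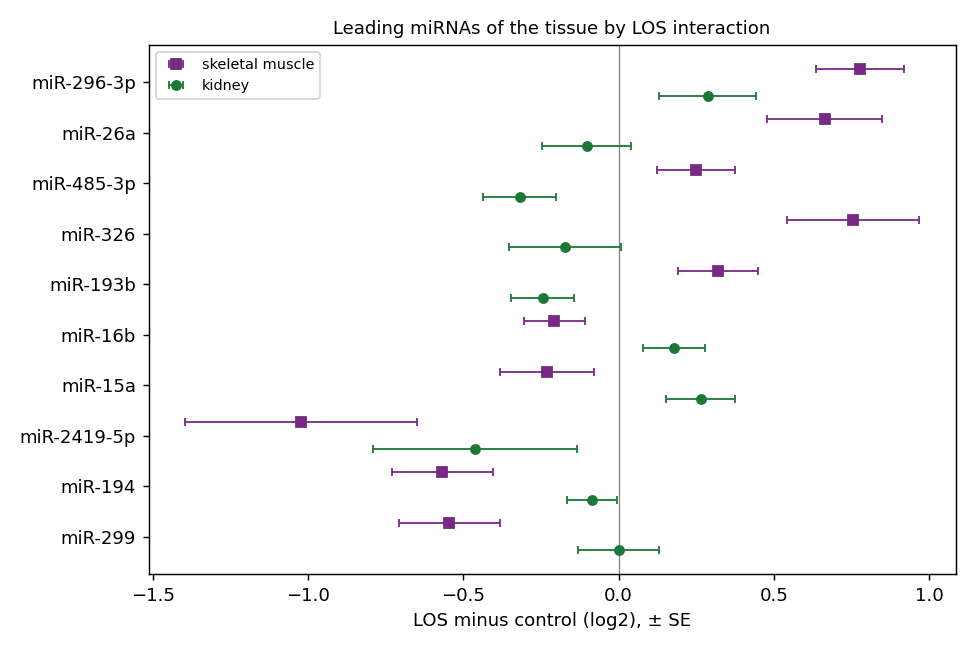
LOS minus control difference (log2, ± SE) in skeletal muscle and in kidney for the 5 miRNAs per direction with the smallest p of the tissue by LOS interaction. miR-26a lies at 0.66 in muscle and -0.10 in kidney, miR-15a and miR-16b lie left of 0 in muscle and right of 0 in kidney, and miR-296-3p lies right of 0 in both.

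The leading lower miRNAs were also read in the liver of the fetuses with these numbers. There 4 of the 8 were lower and 4 higher in LOS fetuses, with a median of 0.02. The liver difference minus the kidney and muscle average was above 0 for all 8, from 0.13 to 0.68, with 0.68 for miR-199b (adjusted p 0.0581) and 0.55 for miR-125b (adjusted p 0.136, both by edgeR's quasi-likelihood test with the fetus as a block). None was called, and because their low average chose them, the sign of that contrast is partly fixed. Of the 8 leading higher miRNAs 7 were higher and 1 lower in these livers, with a median of 0.09. Their liver difference minus the average was below 0 for 7 of the 8, a sign again partly fixed by the choice. The livers carry the same fetus numbers, so they are not independent of the choice. Over the 389 miRNAs listed in the 3 tissues 4 were called (1.03%), all let-7 members higher in liver relative to the average. let-7f differed by 0.58 ± 0.09 in liver, -0.21 ± 0.09 in muscle and -0.01 ± 0.06 in kidney, a liver minus average difference of 0.68 ± 0.12 (adjusted p 0.00958, edgeR). let-7d, let-7a-5p and let-7g gave 0.48 ± 0.09, 0.59 ± 0.11 and 0.60 ± 0.13 (adjusted p 0.0102, 0.0102 and 0.0399, edgeR). Without LOS fetus 1 no miRNA was called, with a lowest adjusted p of 0.0508, and without LOS fetus 2 there were 14 calls.

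Tongue libraries of other fetuses, the males LOS 5 to 7 and control 6 to 9, gave values that the choice of members did not use. No miRNA of 460 was called there (0% called, 24 at an unadjusted p under 0.05, lowest adjusted p 0.796, edgeR, and 0 called by DESeq2). Of the 8 leading lower miRNAs 1 was lower and 7 were higher in LOS tongue, with a median of 0.18, where 197 of the 379 shared miRNAs listed in tongue were higher. miR-125b differed there by 0.17 ± 0.13, miR-199b by 0.26 ± 0.13, miR-100 by 0.28 ± 0.19 and miR-99a-5p by 0.32 ± 0.18. Of the 8 leading higher miRNAs 7 were listed in tongue and all 7 were higher, from 0.08 to 0.78, with miR-296-3p at 0.20 ± 0.24 and miR-708-3p at 0.24 ± 0.15. Tissue, fetuses and, where the tongue labels of numbers 1 to 4 hold, sex differ between these libraries and the kidney and muscle ones. Their parts cannot be told apart in this comparison. The series also holds tongue libraries of LOS 1 to 4 and control 1 to 4, which were left out of it.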

How the data were processed

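Small RNA libraries were made with the TruSeq small RNA kit from 2 µg of TRIzol-extracted RNA, per the labels' protocols. The authors deposited whole-number counts per mature miRNA, not normalized. Bowtie and the cattle build UMD3.1 are named, per the submitters' processing notes. How reads were counted, with which annotation, and what was done with reads shared between miRNAs is not given in the sources used here. Sequences and positions of miRNAs are not given, because no annotation of that build was used here.

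TMM factors were computed per whole tissue table (R 4.3.3, edgeR 4.0.16). The lowest count of a shared miRNA was 16 in kidney and 10 in muscle, and no filter was applied. For the average, log2 CPM (prior count 2) were averaged over both tissues of a fetus and tested with limma 3.58.1 (trended eBayes), since a contrast between fetuses cannot be fitted with the fetus as a block. The interaction, the tissue fits and the liver contrast used edgeR's quasi-likelihood test, with the fetus as a block for the first and the last of these. p-values were adjusted by Benjamini-Hochberg over all miRNAs fitted, with calls under 0.05. Intervals are 95%. All tests were two-sided. The limma test of the average and the edgeR test of the interaction were tried on simulated counts, and the other fits were not. No duplicate libraries were found: chi-square divided by its degrees of freedom was at least 43.4 for every within-group pair.

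Equal fetus numbers in the sample titles were taken as the same fetus across tissues. Deviations from the group mean across 398 miRNAs correlated between the tissues of a fetus with a median r of 0.22 (0.02 to 0.54, 8 fetuses) and between different fetuses of a group with a median of -0.05 (-0.28 to 0.26, 24 pairs). Deviations from a group mean cancel out over its fetuses. Correlations between different fetuses are therefore pulled down where those within a fetus are positive, and the median of -0.05 is partly fixed by this. In 5 of the 8 fetuses the correlation was above every one with another fetus of the group. It was not in LOS 2 (0.09), control 1 (0.02) and control 4 (0.05), and the highest between different fetuses was 0.26, between control 1 kidney and control 4 muscle. LOS and control fetuses of the same number are different animals.

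The text names the miRNAs with the smallest p, 8 per direction for the average and 5 per direction for the interaction, up to 4 members of each of 22 lists and a fixed set, 60 in all. Other arms, miR-temp45-3p, miR-214 and the DLK1-DIO3 members given with LOS fetus 3 were named after their values were seen. The members and lists were chosen with earlier results of these data known. Entries with near-equal counts (within 15%), such as miR-339a with miR-339b, are uncertain. Alternatives covered other tests (DESeq2 1.42.0 among them), scalings, filters, a replicate block and leaving out each fetus.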

Additional observations from a re-analysis of the deposited data

Results flagged for a closer look

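Of 240 groups of 4 libraries (60 named miRNAs in LOS and control fetuses of both tissues), 15 held a library far from its group, where chance gives about 1 in 20. The values given are the gap from that library to its nearest neighbour divided by the whole range of its group. Among the members that the results turn on, miR-125b in LOS muscle was set apart by fetus 1 with 0.954 (2637 CPM, nearest 2236 CPM), and that fetus was nearest to the controls. miR-26a in LOS muscle was set apart by fetus 3 with 0.906 (103138 CPM, nearest 68335 CPM). miR-296-3p in control kidney was set apart by fetus 2 with 0.844 (169 CPM, nearest 147 CPM).

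In LOS kidneys there were 4 more: miR-133a with 0.867 for fetus 1 (37.7 CPM, nearest 20.7), miR-temp3-5p with 0.870 for fetus 1 (21.3, nearest 32.5), miR-2419-5p with 0.883 for fetus 2 (15.9, nearest 26.7) and miR-483 with 0.920 for fetus 4 (93.9, nearest 153). In control muscles, fetus 1 stood apart for let-7f with 0.8504, miR-127 with 0.931 (128390.5 CPM, nearest 99591) and miR-326 with 0.943 (25.2, nearest 37.2). Fetus 2 stood apart for miR-15a with 0.886 and miR-194 with 0.833, and fetus 3 for miR-665 with 0.831. In control kidneys, fetus 1 stood apart for miR-299 with 0.865 and miR-30f with 0.931.

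The LOS difference of 4 let-7 members was higher in liver than in the kidney and muscle average of the fetuses with the same numbers, by edgeR's test of that difference: 0.68 for let-7f, 0.60 for let-7g, 0.59 for let-7a-5p and 0.48 for let-7d on the log2 scale. Each was past the threshold with all 8 fetuses and none was without LOS fetus 1.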

How the results depend on the processing

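The average LOS difference over both tissues gave 0 calls when each of the 8 fetuses was left out in turn, with RLE size factors, with a prior count of 0.5, with edgeR on counts summed per fetus, and with TMM over all 16 libraries, a scaling chosen after seeing the data. It gave 3 calls with edgeR on 16 libraries without the fetus and 3 with limma-voom and the fetus as a random effect, in both cases miR-125b, miR-199b and miR-296-3p. It gave 10 with DESeq2 on counts summed per fetus (5 higher, 5 lower), which add miR-125a, miR-145-3p, miR-152, miR-708, miR-708-3p, miR-temp60-5p and miR-temp91-5p. It gave 2, miR-125b and miR-199b, where miRNAs of a mean CPM under 10 were dropped, and the same 2 where scaling left out the 3 most abundant miRNAs. Over these 18 alternatives the adjusted p of miR-125b ran from 0.00133 to 0.232, of miR-199b from 0.00016 to 0.232, of miR-296-3p from 0.000427 to 0.458, of miR-145-3p from 0.00362 to 0.398 and of miR-100 from 0.0835 to 0.484. The replicate number as a block pairs LOS and control animals by number alone. It gave 0 calls for the average, kidney and muscle, with lowest adjusted p of 0.169, 0.485 and 0.175. The interaction without the fetus as a block gave 0 calls. Its lowest adjusted p was then 0.531, against 0.0902 by edgeR with the fetus as a block.

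The interaction gave 2 calls with DESeq2 and the fetus as a block, miR-26a and miR-296-3p, and 0 to 1 calls with a fetus left out: miR-temp45-3p without LOS fetus 2 and miR-26a without LOS fetus 4. Kidney alone gave 4 calls with DESeq2 and 0 to 2 with a library left out, the 2 without LOS 2. Muscle alone gave 10 calls with DESeq2, 3 with RLE factors, 3 at a mean CPM of at least 10, and 0 to 1 with a library left out, the 1 without LOS 3. The liver contrast gave 10 calls with DESeq2, 7 at a mean CPM of at least 10, and 0 to 14 with a fetus left out: 0 without LOS 1, 14 without LOS 2, 2 without LOS 3, 9 without LOS 4 and 2 without control 2. Tongue gave 0 calls throughout. The causes were not tested.

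The sign of some named differences turned. With counts summed per fetus, where the deeper or richer tissue weighs more, the average was 0.11 for miR-16b, 0.028 for miR-192, -0.026 for miR-34c and 0.073 for miR-485-3p, alike in edgeR and DESeq2, and for miR-449a 0.058 in edgeR and 0.060 in DESeq2. Of averages over 0.2 in size that kept their sign, summing moved by over 1.5 times those of miR-194 (-0.070), miR-133a (-0.15), miR-204 (0.20), miR-218 (-0.097), miR-2285k (-0.19), miR-299 (-0.49), miR-205 (-0.48) and miR-141 (0.41). It was 0.043 for miR-449a with edgeR on 16 libraries and 0.014 for miR-16b with TMM over all 16. The interaction was 0.0077 and 0.0041 for miR-146a with RLE and with TMM over all 16, and -0.011 for miR-temp3-5p without the fetus as a block. Leaving out a fetus gave averages of -0.067 to 0.016 for miR-127, -0.062 to 0.087 for miR-15a, -0.061 to 0.036 for miR-16b, -0.015 to 0.10 for miR-193b, -0.42 to 0.12 for miR-205, -0.031 to 0.078 for miR-210, -0.15 to 0.023 for miR-335, -0.40 to 0.12 for miR-449a and -0.10 to 0.045 for miR-485-3p, and interactions of -0.069 to 0.20 for miR-10b, -0.19 to 0.051 for miR-125a, -0.15 to 0.055 for miR-125b, -0.48 to 0.39 for miR-141, -0.12 to 0.18 for miR-146a, -0.20 to 0.088 for miR-15b-3p, -0.16 to 0.11 for miR-196a, -0.14 to 1.14 for miR-205, -0.0012 to 0.38 for miR-2285b, -0.026 to 0.17 for miR-30f, -0.20 to 0.49 for miR-451, -0.0017 to 0.25 for miR-486, -0.091 to 0.080 for miR-542-5p, -0.043 to 0.28 for miR-708-3p, -0.17 to 0.14 for miR-99b and -0.086 to 0.099 for miR-temp3-5p. List medians that changed sign under another scaling or filter were those of DLK1-DIO3 (0.00 with TMM over all 16), the miR-30, miR-34, smooth muscle and general epithelium lists. The median of all miRNAs was 0.02 with TMM over all 16.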
